A study of Mus musculus with 6 samples.

Results

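The genes described here are the nuclear-encoded subunits of respiratory complexes II to V and cytochrome c in mouse quadriceps. Members were the protein-coding genes of the count table whose symbol is Sdha, Sdhb, Sdhc, Sdhd, Cyc1 or Cycs, or starts with Uqcr, Atp5, Cox4, Cox5, Cox6, Cox7 or Cox8. This gave 49 of the 48795 genes in the table: 4 of complex II, 9 of complex III with Cyc1, 1 cytochrome c gene, 18 of complex IV and 17 of complex V. All 49 lie on nuclear chromosomes. The symbols also covered 7 processed pseudogenes, with at most 7 counts in any library, and these were left out. RNA of quadriceps came from 2 groups of male C57BL/6 mice aged 20 weeks, with 3 libraries each. MERKO mice carry a muscle-specific knockout of the estrogen receptor ERα (gene Esr1), and control mice are labelled wild type. The sources used here do not name the promoter that drives the deletion, nor say whether control mice carry a floxed allele. Library values below are always listed in the order 1, 2, 3 within each group.

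Complex II, succinate dehydrogenase, passes electrons from succinate to ubiquinone. Complex III, the cytochrome bc1 complex, takes them from ubiquinol to cytochrome c, and complex IV, cytochrome c oxidase, takes them from cytochrome c to oxygen. Complexes III and IV pump protons, and complex V, the ATP synthase, uses the proton gradient to make ATP. Complex II is built from nuclear genes alone, whereas complexes III, IV and V join nuclear subunits to subunits made from mitochondrial DNA. Several subunits of complex IV come as tissue isoforms: Cox6a2, Cox7a1 and Cox8b are the forms of heart and skeletal muscle, and Cox6a1, Cox7a2 and Cox8a are found in most tissues. Oxidative fibres, which are rich in mitochondria, carry more of these transcripts than glycolytic fibres.

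Transcription of these genes is known to involve the nuclear respiratory factor NRF1, the ETS factor GABP and the estrogen-related receptors, orphan receptors that do not bind estrogen. Promoter windows from RefSeq (GRCm38.p6), reaching from 250 bases before to 50 bases after a start site, matched 37 of the 49 members. The NRF1 motif, GCGC and TGCGC with any 1 base between them, was present in 10 of the 37, or 27%, against 4.60% of all 32851 windows. The ETS letters CCGGAAG were present in 12 of the 37, or 32.4%, against 8.86%. The letters AAGGTCA of the estrogen-related receptors were present in 5, or 13.5%, against 4.72%, and the estrogen response element, GGTCA and TGACC with any 3 bases between them, in 0, against 0.07%. A member counted when any of its windows matched, whereas the shares of all windows count each window singly. Atp5c1, Atp5d and Atp5j had more than 1 window. Both strands were searched, and the last motif can overlap AAGGTCA by sharing GGTCA. A match describes letters only. The 250 bases before the start site are shown for 6 members with every match in capitals: Sdha and Sdhd for complex II, Cox6a1 for a form of most tissues, Atp5e as the member with the lowest p, and the muscle forms Cox7a1 and Cox8b.
Sdha (chr13:74350241-74350490, minus strand): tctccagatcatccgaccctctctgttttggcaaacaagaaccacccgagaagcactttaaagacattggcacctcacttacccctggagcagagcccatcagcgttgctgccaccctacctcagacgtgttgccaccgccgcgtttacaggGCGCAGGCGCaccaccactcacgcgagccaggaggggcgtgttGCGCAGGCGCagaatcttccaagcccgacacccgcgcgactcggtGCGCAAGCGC
Sdhd (chr9:50603850-50604099, minus strand): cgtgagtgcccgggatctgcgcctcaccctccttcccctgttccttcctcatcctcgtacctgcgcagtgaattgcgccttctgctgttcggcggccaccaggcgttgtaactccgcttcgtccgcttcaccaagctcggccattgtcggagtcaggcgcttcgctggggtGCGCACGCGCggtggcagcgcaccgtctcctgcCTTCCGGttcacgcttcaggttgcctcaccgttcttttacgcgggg
Cox6a1 (chr5:115348959-115349208, minus strand): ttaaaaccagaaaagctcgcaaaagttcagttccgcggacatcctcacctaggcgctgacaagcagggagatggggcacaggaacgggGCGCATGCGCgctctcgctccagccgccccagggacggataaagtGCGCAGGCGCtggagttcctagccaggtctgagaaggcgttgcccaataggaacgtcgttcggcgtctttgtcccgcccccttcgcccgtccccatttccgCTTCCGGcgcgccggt
Atp5e (chr2:174464102-174464351, minus strand): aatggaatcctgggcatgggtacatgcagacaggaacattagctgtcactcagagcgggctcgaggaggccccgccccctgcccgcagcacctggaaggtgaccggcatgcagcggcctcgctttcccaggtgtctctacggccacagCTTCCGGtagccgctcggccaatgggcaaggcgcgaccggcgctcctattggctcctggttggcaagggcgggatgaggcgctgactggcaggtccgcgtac
Cox7a1 (chr7:30183921-30184170, plus strand): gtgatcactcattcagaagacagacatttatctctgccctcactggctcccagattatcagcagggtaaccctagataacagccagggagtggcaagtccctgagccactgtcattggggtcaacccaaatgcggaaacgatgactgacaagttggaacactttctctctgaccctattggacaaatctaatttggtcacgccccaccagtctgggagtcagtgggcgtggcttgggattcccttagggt
Cox8b (chr7:140900447-140900696, minus strand): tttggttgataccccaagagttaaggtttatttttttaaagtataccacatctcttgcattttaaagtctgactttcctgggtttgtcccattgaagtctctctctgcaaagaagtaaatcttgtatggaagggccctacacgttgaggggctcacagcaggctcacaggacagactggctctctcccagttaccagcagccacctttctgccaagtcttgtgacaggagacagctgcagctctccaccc
The Sdha sequence holds 3 NRF1 matches and that of Cox6a1 holds 2, beside 1 ETS match. Sdhd has 1 match of each of these motifs and Atp5e has 1 ETS match, and both also hold AAGGTCA after the start site, outside the stretch shown. None of the 4 motifs was found in the stretches of the muscle isoform genes Cox7a1 and Cox8b, which says only that these letters are absent there. Cox6a2, Cox4i1, Cox4i2, Cox6c, Cox8c, Sdhc, Cyc1, Uqcrb, Uqcrc2, Uqcrq, Atp5a1 and Atp5mpl had no entry.

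Total counts lay between 14935532 and 44282448 per library. Esr1, the targeted gene, measured 6.75, 9.43 and 7.46 CPM across the MERKO libraries against 25.1, 34.1 and 31.1 CPM across the controls, so the labels and this gene go together (log2 fold change -1.95, SE 0.16, edgeR adjusted p = 0.0262). CPM are counts per 1000000 counts of a library, here scaled with TMM factors. All 8 skeletal muscle markers were detected, with Acta1 between 19870 and 24750 CPM. The make-up of the libraries varied within both groups. An rRNA gene model took between 0.0433% and 32.4% of counts, and genes of mitochondrial DNA took between 4.90% and 11.02%, with MERKO 2 and control 2 lowest. The summed CPM of 9 slow-fibre markers was 573 in MERKO 1 and 586 in control 1 and lay between 52.8 and 64.5 in the other 4 libraries, with none of the markers at 0. Adipocyte markers were lower in 9 of 9 genes, with sums of 130.5 to 168 CPM in MERKO and 172 to 533 CPM in control. Tendon markers were higher in 7 of 8, with sums of 82.2 to 395 CPM and 29.7 to 83.2 CPM, and nerve markers in 6 of 6, with sums of 35.1 to 53.9 CPM and 25.1 to 32.9 CPM. Of 6 heart markers, Nppa and Myl7 had 0 counts in every library, and the 3 tested (Tnnt2, Myl4 and Myh6) were higher in MERKO, with sums over the list of 5.05 to 10.6 CPM and 1.82 to 6.34 CPM. Red blood cell markers were lower in 5 of 5, endothelium markers in 2 of 6 and macrophage markers in 3 of 5. None of these markers passed the adjusted threshold in edgeR. An unadjusted p under 0.05 by edgeR was seen in 6 adipocyte, 6 tendon, 2 nerve and 1 macrophage markers, as in 7.04% of all genes tested. It was seen in 0 heart, endothelium or red blood cell markers. The part of these markers in the member values was not tested.

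The comparison asked whether loss of ERα in muscle went with a different level of respiratory subunit transcripts, a question that the series title raises by naming mitochondria and metabolism. Of the 49 members, 46 passed the filter on low counts and were tested, with 24 higher and 22 lower in MERKO, where 52.1% of all genes were higher. Of these 46, 0 passed the threshold of an adjusted p under 0.05 in the edgeR quasi-likelihood test, where the background is 0.00734% of 13628 genes tested. Also 0 members had an unadjusted p under 0.05, against 7.04% of all genes. DESeq2, which called 0.166% of its genes, and limma-voom called 0 members too. The groups did not overlap in CPM in 0 of the 46 members, against 13.3% of all genes, made up of 6.17% with MERKO higher and 7.1% with MERKO lower. The median log2 fold change was 0.00108 over the members and 0.0109 over all genes tested. Member values ran from -0.28 for Atp5e to 0.16 for Cox6a2, and the lowest adjusted p was 0.803. The 95% interval lay within a 2-fold change in either direction for 45 of the 46 and within a 1.5-fold change for 35. Changes smaller than an interval's bounds could not be told from none with 3 libraries per group. The exception to the first count was Cox4i2, which had few counts. In bulk muscle, fewer cells of a type and less RNA per cell cannot be told apart.

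**Figure D1:**
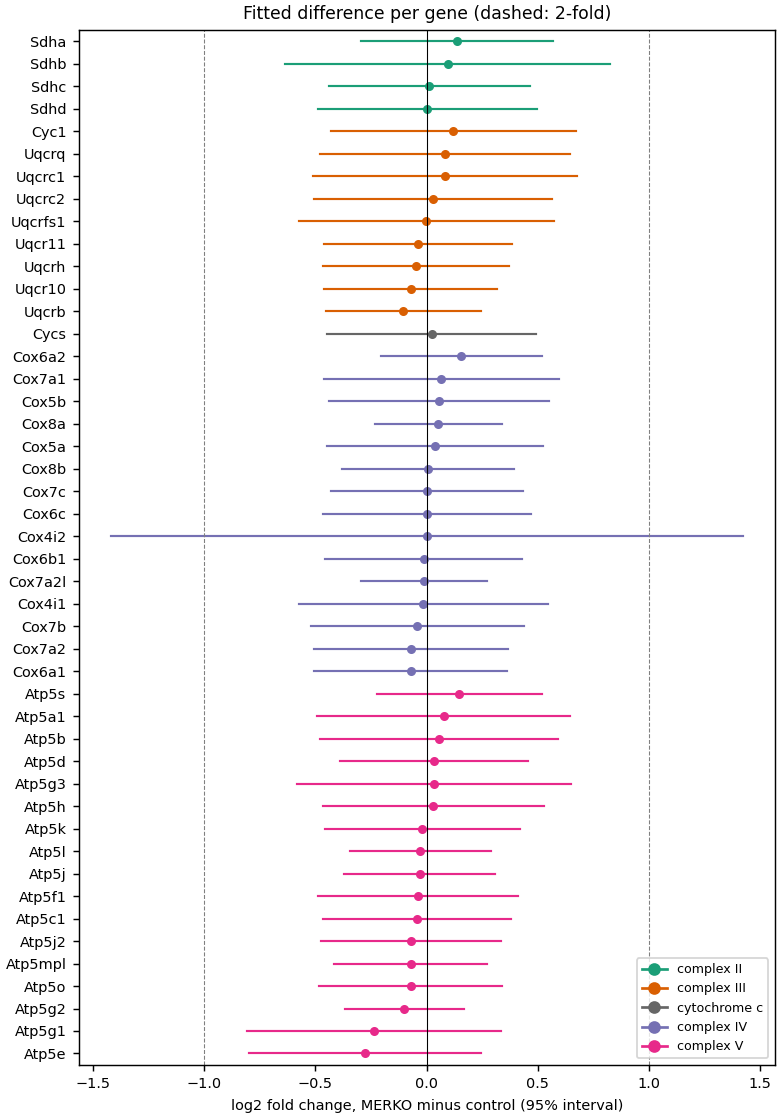
Fitted log2 fold change (MERKO minus control) of the 46 tested members, with points for estimates and lines for 95% intervals, coloured by complex. Every interval spans 0, and all but that of Cox4i2 lie between the dashed lines at a 2-fold change.

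The catalytic and anchor subunits of complex II had 4 of 4 members above 0 on the log2 scale, with a median of 0.05, and none passed. Sdha (ENSMUSG00000021577.13, GRCm38 chromosome 13, 74322254 to 74350280, minus strand), the flavoprotein that oxidises succinate, measured 675, 495 and 569 CPM across the MERKO libraries against 647, 516 and 420 CPM across the controls. The highest Sdha value of each group was in library 1, and the groups overlapped (log2 fold change 0.14, 95% interval -0.29 to 0.57, edgeR adjusted p = 0.881). Sdhb, the iron-sulfur subunit (chromosome 4, 140961203 to 140979193, plus strand), measured 399, 183 and 228 CPM across the MERKO libraries against 352, 198 and 208 CPM across the controls. Library 1 of each group exceeded every other library in Sdhb, and its difference of 0.09 (-0.64 to 0.83) had the widest interval of the complex. Sdhc, a membrane anchor that binds ubiquinone, averaged 150 ± 34.0 CPM over the MERKO libraries against 148 ± 32.5 CPM over the controls (SD, n = 3 each). Sdhd, the other anchor, averaged 139 ± 36.1 and 139 ± 32.4 CPM. Without MERKO 1 the median of the complex was -0.21, and without control 1 it was 0.26.

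Complex III had 4 members higher and 5 lower, with a median of -0.0023 and no member past the threshold. Uqcrc1, a core subunit (chromosome 9, 108936633 to 108949623, plus strand), measured 629, 363 and 438 CPM across the MERKO libraries against 609, 390 and 353 CPM across the controls. Its partner Uqcrc2 averaged 313 ± 82.0 CPM over the MERKO libraries against 306 ± 82.9 CPM over the controls. The electron carriers of the complex showed the same overlap. Cyc1, cytochrome c1, measured 240, 156 and 168 CPM across the MERKO libraries against 236, 148 and 135 CPM across the controls (log2 fold change 0.12, -0.43 to 0.67). Uqcrfs1, the Rieske iron-sulfur protein, averaged 250 ± 79.8 and 250 ± 66.2 CPM (-0.00227, -0.576 to 0.572). The lowest p of the complex, 0.510 before adjustment by edgeR, belonged to the small subunit Uqcrb with 181, 137 and 161 CPM across the MERKO libraries against 198, 143 and 173 CPM across the controls (-0.10, -0.45 to 0.24). Uqcr10 and Uqcr11, small subunits that were with Uqcrb the 3 members of this complex highest per kilobase of transcript in control, had log2 fold changes of -0.07 and -0.04. Uqcrh, the hinge protein that helps cytochrome c dock, and Uqcrq, which lies near cytochrome b, had -0.05 and 0.08. Cycs, the somatic cytochrome c that shuttles electrons from complex III to complex IV, measured 189, 120 and 141 CPM across the MERKO libraries against 184, 119 and 139 CPM across the controls. The Cycs difference of 0.02 (-0.45 to 0.49) was small against its spread within each group.

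In complex IV, 15 of 18 members were tested, with 9 higher, 6 lower and a median of 0.00145. Cox4i1, the regulatory subunit that binds adenine nucleotides (chromosome 8, 120668222 to 120674207, plus strand), measured 429, 248 and 300.3 CPM across the MERKO libraries against 432, 268 and 288 CPM across the controls. Library 1 was the highest of each group, and the groups overlapped over nearly their whole range (-0.01, -0.57 to 0.54). Cox5a and Cox5b, subunits that face the matrix, averaged 228 ± 57.3 and 214 ± 52.4 CPM over the MERKO libraries against 222 ± 50.2 and 206 ± 48.5 CPM over the controls. Cox6b1, which lies between the monomers of the dimer, averaged 184 ± 42.0 and 186 ± 35.9 CPM. Cox6c, Cox7b and Cox7c, small subunits of the membrane part, had log2 fold changes of 0.00145, -0.041 and 0.0019. Cox7a2l measured 71.2, 55.6 and 53.5 CPM across the MERKO libraries against 63.7, 58.3 and 60.1 CPM across the controls, a narrow spread for a member. Cox4i2, the form of lung and of low oxygen, had 45, 9 and 10 counts across the MERKO libraries against 30, 3 and 56 counts across the controls. Cox6b2, Cox7b2 and Cox8c, forms known from testis, did not pass the filter. Cox6b2 had 10, 0 and 0 counts across the MERKO libraries against 0, 1 and 2 across the controls. Cox8c had 6 counts and Cox7b2 had 1, all in MERKO 1. A count of 0 allows up to 3 counts in that library, counting error only.

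The muscle forms of complex IV subunits were compared with their partners of most tissues as a ratio of counts per kilobase within a library, which does not depend on how libraries are scaled. Cox6a2 (chromosome 7, 128205435 to 128206387, minus strand) exceeded Cox6a1 by 28.9, 41.2 and 27.7 times across the MERKO libraries and by 29.9, 22.5 and 27.1 times across the controls. MERKO 2 held the highest ratio, and the groups overlapped (log2 difference 0.29, exact two-sided permutation p = 0.4, where 3 against 3 libraries allow no p below 0.1). Cox6a2 itself measured 406, 339 and 304 CPM across the MERKO libraries against 372, 281 and 288 CPM across the controls, the largest positive difference among the members (0.16, -0.21 to 0.52). Cox6a1 measured 11.8, 6.90 and 9.24 CPM across the MERKO libraries against 10.5, 10.5 and 8.95 CPM across the controls. Cox7a1 exceeded Cox7a2 by 3.12, 2.74 and 3.22 times across the MERKO libraries and by 2.94, 2.75 and 2.55 times across the controls (log2 difference 0.14, exact permutation p = 0.3). Cox8b exceeded Cox8a by 20.0, 16.6 and 19.6 times across the MERKO libraries and by 21.6, 15.7 and 20.98 times across the controls (-0.04, exact permutation p = 0.7). In each of these pairs the muscle form was the more abundant in all 6 libraries. Cox7a1 and Cox8b are also genes of brown fat, whose markers Ucp1, Cidea and Elovl3 summed to between 0.0368 and 0.851 CPM, with Elovl3 at 0 counts. Cox4i2 stood at 0.00333, 0.00319 and 0.00167 of the level of Cox4i1 across the MERKO libraries against 0.00305, 0.00092 and 0.00373 across the controls (exact permutation p = 0.8). Over the 5 pairs compared, the lowest p was 0.2 and 0.667 after Benjamini-Hochberg adjustment.

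**Figure D2:**
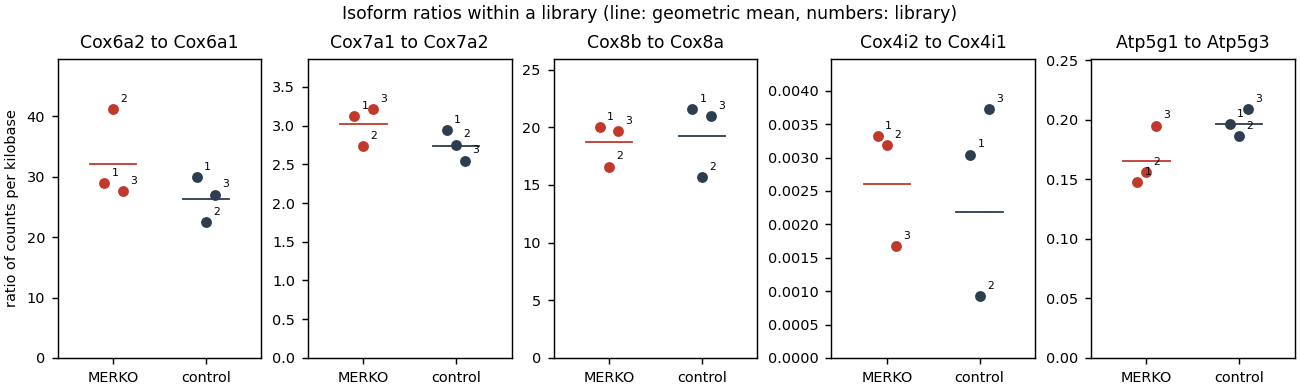
Ratio of counts per kilobase of transcript for 5 pairs of isoform genes, 1 point per library numbered by replicate, with lines at the geometric mean of each group and axes that start at 0. The groups overlap in all 5 pairs.

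In complex V, 6 of 17 members were higher and 11 lower, with a median of -0.03. Atp5b, the catalytic beta subunit (chromosome 10, 128083273 to 128090391, plus strand), was the most abundant member with 2317, 1523 and 1708 CPM across the MERKO libraries against 2282, 1612 and 1446 CPM across the controls. Atp5a1, the alpha subunit of the same head, measured 2148, 1383 and 1575 CPM across the MERKO libraries against 2137, 1438 and 1264 CPM across the controls. For both, library 1 was the highest of each group, and the differences of 0.06 (-0.48 to 0.59) and 0.08 (-0.49 to 0.65) were small against that spread. Atp5c1, the gamma subunit of the central stalk, averaged 427 ± 84.1 CPM over the MERKO libraries against 439 ± 80.9 CPM over the controls. The lowest p of all members, 0.256 before adjustment by edgeR, belonged to Atp5e, the epsilon subunit of the same stalk. Atp5e (chromosome 2, 174461072 to 174464105, minus strand) measured 168, 106 and 101 CPM across the MERKO libraries against 186, 119 and 150 CPM across the controls. Its lowest 2 values were MERKO 2 and MERKO 3, and MERKO 1 lay above control 2 and control 3 (log2 fold change -0.28, SE 0.23, -0.80 to 0.24, edgeR adjusted p = 0.803). Without MERKO 1 its log2 fold change was -0.55, with an unadjusted p of 0.01395 and an adjusted p of 0.779 by edgeR, and without control 1 it was -0.11. In the fit without MERKO 1, 862 of 13835 genes had an unadjusted p under 0.05, and Atp5e was the only member among them. The delta subunit gene Atp5d had a difference of 0.03 and the stator genes Atp5f1, Atp5h, Atp5j and Atp5o had -0.04, 0.03, -0.03 and -0.07. The membrane subunit genes Atp5j2, Atp5k, Atp5l and Atp5mpl had -0.07, -0.02, -0.03 and -0.07, and Atp5s, a coupling factor rather than a core subunit, had 0.15.

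The c ring of complex V is encoded by Atp5g1, Atp5g2 and Atp5g3, which give the same mature protein from different precursors. Atp5g1 (chromosome 11, 96068852 to 96075670, minus strand) measured 242, 141 and 199 CPM across the MERKO libraries against 308, 179 and 198 CPM across the controls (log2 fold change -0.24, -0.81 to 0.33). Control 1 held the highest value and MERKO 2 the lowest, with overlap between the groups. Atp5g3 measured 248, 136 and 154 CPM across the MERKO libraries against 238, 146 and 143 CPM across the controls (0.03, -0.58 to 0.65). Per kilobase, Atp5g1 stood at 0.147, 0.156 and 0.195 of the level of Atp5g3 across the MERKO libraries against 0.196, 0.186 and 0.209 across the controls (log2 difference -0.25, exact permutation p = 0.2). MERKO 3 lay among the control libraries in this ratio. Atp5g2 measured 27.8, 24.8 and 22.4 CPM across the MERKO libraries against 28.7, 23.9 and 27.7 CPM across the controls (-0.10, -0.37 to 0.17). Which of Atp5g1 and Atp5g3 was the higher per kilobase depended on the transcript taken as length. The ratio in control was 0.197 with the best supported principal transcripts and 1.557 with the shortest.

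The members differed more between libraries of a group than between the groups. MERKO 1 was the highest MERKO library in 46 of 46 tested members, and control 1 was the highest control library in 43 of 46, with Cox6a1, Cox8a and Atp5s as the exceptions. MERKO 2 was the lowest of its group in 40 members and control 2 of its group in 31. A member score, the mean over members of log2 CPM relative to the 6 libraries, was 0.35, -0.26 and -0.09 across the MERKO libraries against 0.33, -0.21 and -0.11 across the controls. The members took 1.77%, 0.699% and 0.990% of all counts across the MERKO libraries against 1.55%, 0.827% and 1.18% across the controls. With rRNA and mitochondrial DNA counts set aside, they took 2.13%, 1.12% and 1.42% across the MERKO libraries against 1.97%, 1.26% and 1.32% across the controls, so library 1 remained the highest of each group. The median within-group SD of log2 CPM was 0.30 over the members, and 0.14 over the 1746 tested genes with a mean of at least 50 CPM, a range that holds 40 of the members.

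**Figure D3:**
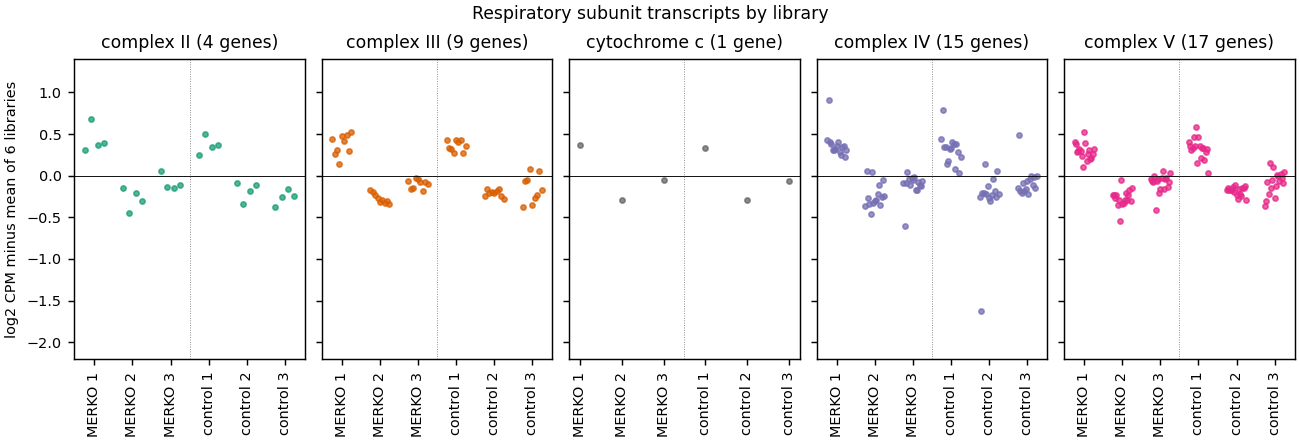
Log2 CPM of each tested member minus its mean over the 6 libraries, with 1 point per gene and library and 1 panel per complex. Library 1 of each group lies highest in nearly every gene, and the low point of complex IV in control 2 is Cox4i2 with 3 counts.

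All complexes were highest in library 1 of each group. Scores in MERKO 1 were 0.44 for complex II, 0.37 for complex III, 0.37 for cytochrome c, 0.37 for complex IV and 0.29 for complex V, and those in control 1 were 0.36, 0.36, 0.33, 0.30 and 0.32. In MERKO 2 they lay between -0.29 and -0.23 and in MERKO 3 between -0.11 and -0.05. Among the other controls the order differed by complex. Complex II, with 4 genes, was lower in control 3 at -0.26 than in control 2 at -0.18. Complex III, cytochrome c, complex IV and complex V were lower in control 2, at -0.21, -0.29, -0.25 and -0.18. In control 3 these stood at -0.15, -0.07, -0.08 and -0.08. The likeness of single members to the member mean rested in part on libraries 1. As a description over 6 libraries, which share depth and scaling, Pearson's r was 0.934 for Atp5a1, 0.948 for Atp5b, 0.930 for Cyc1 and 0.803 for Sdha, and over the 4 libraries without MERKO 1 and control 1 it was 0.12, 0.169, -0.0176 and -0.0427. For Cox4i1 and Cox6c it was 0.980 and 0.993 over those 4. The ratio of the highest to the lowest library had a median of 1.58 over the members. It ranged from 1.28 for Atp5g2 to 2.19 for Atp5g1 among members other than Cox4i2, with Sdhb at 2.18, and reached 5.78 for the sparse Cox4i2. Libraries 1 also held the most slow and oxidative myosin. Myh7, the slow heavy chain, reached 160 CPM in MERKO 1, 185 CPM in control 1 and at most 8.07 CPM elsewhere. Myh2, the heavy chain of fast oxidative fibres, measured 3050, 164 and 722 CPM across the MERKO libraries against 1514, 56.7 and 38.3 CPM across the controls. The part of fibre make-up in the member levels was not tested. Within control, 15 members were lowest in control 3, the library with the least rRNA, and 31 in another library. The 15 had a median transcript length of 1363 bases against 680 bases for the 31, and they include Sdha, Uqcrc1, Atp5a1 and Atp5b. The part of RNA or library quality in this was not tested.

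Libraries 1 were high in both groups, and the sign of the median changed with the libraries in the fit. Without MERKO 1, 43 of the 46 members were lower in MERKO with a median of -0.20, and without control 2 and control 3 in turn 40 and 42 were lower, with medians of -0.09 and -0.07. Without MERKO 2, 3 members were lower with a median of 0.12, without MERKO 3, 13 were lower with 0.06, and without control 1, 3 were lower with 0.17. With MERKO 1 and control 1 both left out, 28 members were lower and the median was -0.03, in a fit that called 0.0526% of all genes, and with MERKO 2 and control 2 both left out, 14 were lower and the median was 0.03. No member passed the threshold in any of these fits. Without a composition factor 38 members were lower, with a median of -0.08, while the median of all genes moved by -0.11 to -0.10, so the members lay slightly above all genes on that scale.

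**Figure D4:**
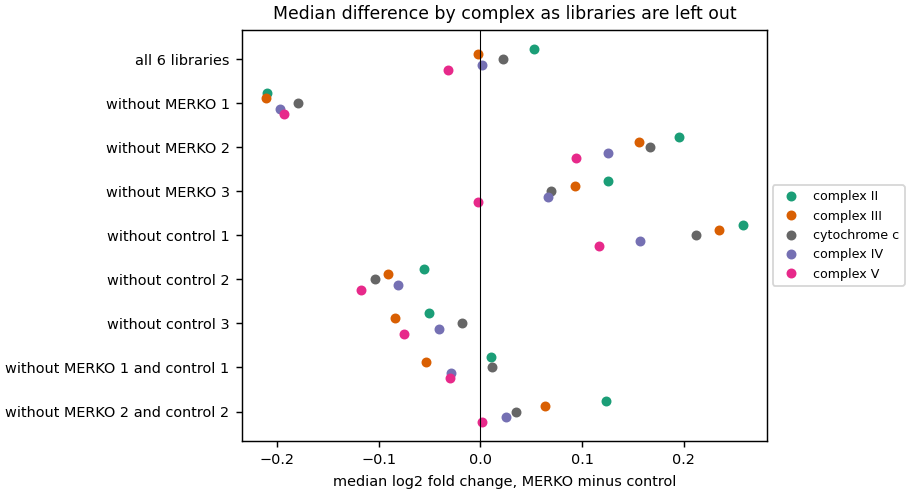
Median log2 fold change (MERKO minus control) of the tested members of each complex, with all 6 libraries and as libraries are left out. With all libraries the medians lie between -0.03 and 0.05, without MERKO 1 all 5 lie near -0.2, and without control 1 all 5 lie between 0.12 and 0.26.

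Levels were compared between genes as CPM per kilobase of the principal transcript, in control. Atp5b led at 929 ± 231, followed by Atp5a1 at 653 ± 187, Cox8b at 584 ± 88.4, Cox6a2 at 462 ± 74.6 and Cox4i1 at 430 ± 117 (SD, n = 3). The order depended on the length taken. With the merged exons of all transcripts as length, Cox8b led at 584, before Atp5a1 at 514.5, Cox6a2 at 462 and Atp5b at 420.1, so the order of the alpha and beta subunits of the ATP synthase head reversed. Cox8b kept a rank between 1 and 3 and Cox6a2 between 3 and 4 under all 3 lengths used. Cox6c moved from 390 to 55.0 with merged exons, and Uqcrq from 59.2 to 222 with its shortest principal transcript. Of the 45 pairs of neighbours in the order by principal transcript, 7 differed by more than the larger of their SDs, among them Atp5b over Atp5a1 and Cox8b over Cox6a2. Sdhb and Sdha, which pair in equal number in the enzyme, lay at 221 ± 75.4 and 182 ± 39.3 by principal transcript and in the opposite order with merged exons, at 113 and 128. Sdhc was the lowest of complex II under all 3 lengths, at 46.8 ± 10.3 by principal transcript. At the low end were Cox8a at 30.2 ± 2.29, Cox6a1 at 17.5 ± 1.54, Atp5s at 4.64 ± 0.60 and Cox4i2 at 1.15 ± 0.73, which held ranks between 41 and 46 of 46 under all 3 lengths. By CPM the members were abundant, with a median member above 96.7% of all genes tested.

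**Figure D5:**
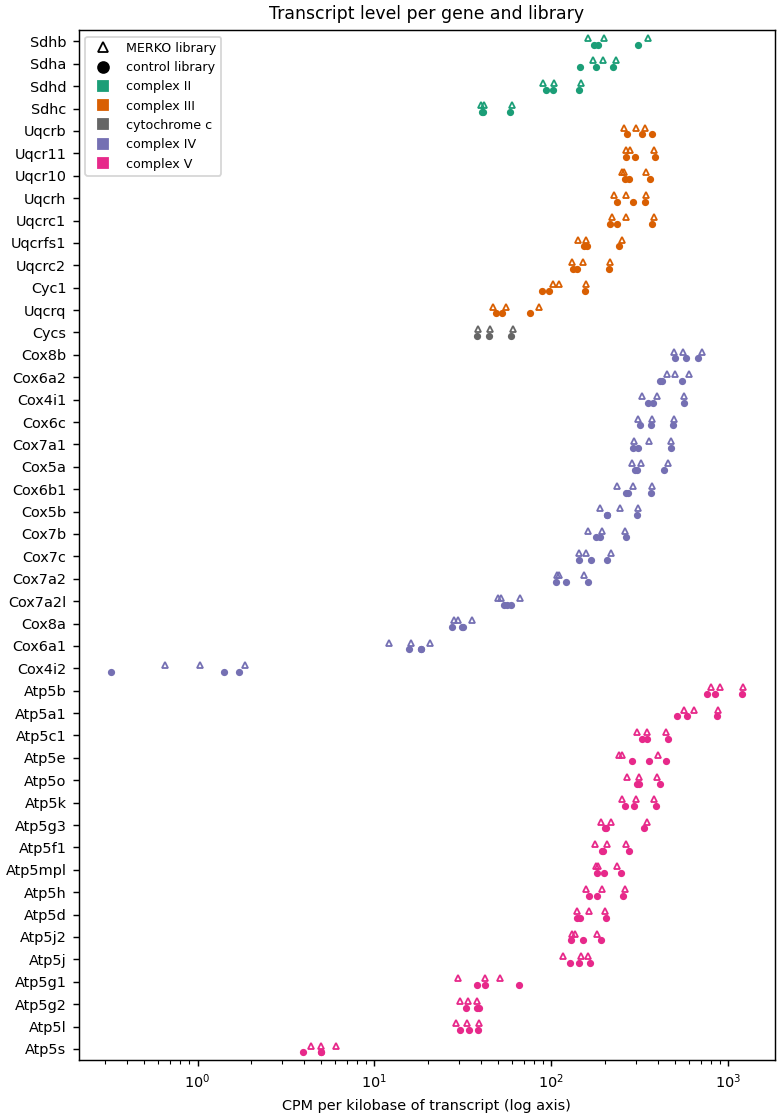
CPM per kilobase of principal transcript on a log axis for each tested member and library, with triangles for MERKO and circles for control, ordered by the control mean within each complex. MERKO and control libraries overlap in every gene, and the isoforms of most tissues Cox6a1 and Cox8a lie below the muscle isoforms Cox6a2 and Cox8b.

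Some low levels stand beside shared sequence. Of all stretches of 50 bases in the Atp5g2 transcript, 87.4% also occur in another annotated gene, and for Atp5l this share was 84.8%. Pseudogenes made up 2 of the 2 sharing genes for Atp5g2 and 11 of the 14 for Atp5l. Atp5l lay at 34.3 ± 3.92 and Atp5g2 at 36.6 ± 3.43 CPM per kilobase, and with Atp5s they were the lowest of complex V under all 3 lengths. The share was 53.0% for Cox7c, 50.5% for Atp5h, 50.3% for Atp5o, 43.4% for Uqcrb, 38.7% for Atp5f1, 32.0% for Cox5a and 28.5% for Cycs. It was lower in the other members, and 0 among others for Sdha, Sdhb, Sdhd, Cyc1, Uqcrc1, Cox7a1, Cox7a2, Cox8a, Cox8b and Atp5e. Both strands were searched, so a gene that overlaps at the same place also counts, as for Atp5f1, Atp5o and Cox5a. That part of a share is not sequence found at several places in the genome. The sources used here do not say how multiply placed reads were counted, so the levels of genes with shared stretches are uncertain. The part of shared sequence in these levels was not tested. Exons of Atp5o, Uqcrc2, Cox5a and Atp5j also overlap other genes over 47.9%, 19.7%, 12.8% and 12.7% of their bases. For Uqcrc2, Cox5a and Atp5j the overlapping gene lies on the other strand. For Atp5o the overlapping genes include another annotated entry of the same symbol on the same strand.

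Other genes of the pathway were read from lists by role, and 0 of them passed in the edgeR test. Of 27 tested assembly factors of complex IV, 13 were higher and 14 lower, with a median of -0.00212 and 0 at an unadjusted p under 0.05. The groups did not overlap in 3 of the 27, Cox14, Surf1 and Cox17, where 13.3% of all genes tested did not overlap. Of the factors with the lowest p, Cox14, which assists synthesis of the largest subunit, averaged 33.3 ± 1.43 CPM over the MERKO libraries against 38.1 ± 2.73 CPM over the controls, and Surf1, which assists its assembly, averaged 14.5 ± 1.46 and 16.9 ± 0.92 CPM. Of 4 factors of complex II, 2 were higher and 2 lower. Here Sdhaf3, which helps mature the iron-sulfur subunit Sdhb, stood at 7.95 ± 0.47 CPM over the MERKO libraries against 10.2 ± 0.67 CPM over the controls, without overlap (log2 fold change -0.36, SE 0.12, edgeR adjusted p = 0.668). Its unadjusted p by edgeR was under 0.05, as was that of 7.04% of all genes tested. Of 7 factors of complex III, 4 were higher and 3 lower, with Uqcc2 at 61.0 ± 3.34 and 74.4 ± 11.3 CPM (-0.29, SE 0.12, edgeR adjusted p = 0.706). The unadjusted p of Uqcc2 by edgeR was also under 0.05. Of 6 factors of complex V, 3 were higher and 3 lower. Regulators of respiratory genes had 12 of 16 higher with a median of 0.11, where 52.1% of all genes tested were higher. Their mean score was 0.49, -0.26 and 0.05 across the MERKO libraries against 0.27, -0.20 and -0.35 across the controls. It was highest in library 1 of each group. The lowest p belonged to the co-activator gene Ppargc1b at 7.92 ± 2.74 and 5.66 ± 1.62 CPM (0.55, SE 0.29, edgeR adjusted p = 0.713). The groups did not overlap in 1 of the 16, where 13.3% of all genes did not. It was Gabpb1, a subunit gene of GABP, at 5.63 ± 0.29 and 4.74 ± 0.62 CPM (0.23, SE 0.15, edgeR adjusted p = 0.741). Subunits of the complexes whose symbols fall outside the rule, Ndufa4 of complex IV and Usmg5 of complex V, had log2 fold changes of -0.10 and -0.13, and the ATP synthase inhibitor Atpif1 had -0.07. Of 5 tested subunits in mitochondrial DNA, 2 were higher and 3 lower. Of these, mt-Co1, the catalytic subunit of complex IV, averaged 21100 ± 4961 CPM over the MERKO libraries against 21020 ± 5536 CPM over the controls, and mt-Cytb of complex III averaged 1900 ± 611 and 1996 ± 335 CPM. In contrast, mt-Co2, mt-Co3 and mt-Atp6 averaged only 3.37, 6.59 and 1.23 CPM over the MERKO libraries. Over the controls they averaged 3.34, 6.46 and 1.26 CPM, so their directions rest on low values. How multiply placed reads were counted is not known, so these values need not reflect the transcript levels of mt-Co2, mt-Co3 and mt-Atp6. The part of read counting in them was not tested.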

How the data were processed

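The deposited table holds raw read counts per gene, 1 column per library, for 48795 versioned Ensembl identifiers. The submitters' processing notes list the tools STAR 2.5.2b, HTSeq 0.9.1 and DESeq and the builds mm10 and GRCm38. Their roles, the annotation release, how strand was set and how multiply placed reads were treated were not given in the sources used here. Without a known strand setting, overlapping and antisense genes cannot be separated. Groups came from the sample titles, and the labels do not say whether the libraries of a group are separate animals, so p-values measure the spread between libraries. No 2 libraries agreed within sampling noise: the smallest chi-square divided by its degrees of freedom, within a group, was 109.6. Between the groups the smallest was 25.72, for MERKO 2 and control 2. MERKO 3 and control 2 at 44.63 and MERKO 1 and control 1 at 59.58 also lay below the smallest value within a group.

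Symbols matched 48435 identifiers. Coordinates, biotypes and transcript lengths come from GENCODE M21 (GRCm38), with the best supported principal transcript as length. The members, gene lists, motifs and rules were chosen with earlier results of these data known. Genes kept by filterByExpr (13628) were tested by quasi-likelihood in edgeR 4.0.16 (R 4.3.3), using TMM factors and genotype as the sole term, and p-values were adjusted by Benjamini-Hochberg over all genes tested at a threshold of 0.05. Isoform ratios were compared with exact permutation tests. The alternatives were DESeq2 1.42.0, limma-voom (limma 3.58.1), RLE factors, no composition factor, 2 other filters, removal of mitochondrial DNA and rRNA genes, a replicate block, and libraries left out singly or in pairs. Lengths from merged exons or the shortest principal transcript were added after seeing the data. The code was tested on simulated data. Named members were all of complex II, the cytochrome c genes, the 3 lowest in p and 3 highest per kilobase in complexes III to V and the isoform families. Others are given for their role.

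No molecular identifiers are described, so counts are not independent molecules. The deepest library, control 3, is also the one with the lowest rRNA share.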

Additional observations from a re-analysis of the deposited data

How the results depend on the processing

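No member passed the threshold under any alternative, in any fit by edgeR, DESeq2 or limma-voom. The median of the members ran from -0.20 without MERKO 1 to 0.17 without control 1. Among all genes, edgeR called 1 gene with the main settings, and the count was 23 with DESeq2, 93 without a composition factor, 140 without a filter, 51 with the replicate block, 7 without libraries 1 of both groups, and between 0 and 11 when 1 library was left out (0 without MERKO 1 or MERKO 2, 11 without MERKO 3, 2 without control 1 or control 3). In the edgeR fit with the replicate block, which called 0.374% of all genes, 0 members passed and the median of the members was -0.01. Atp5e (adjusted p = 0.283) and Atp5g1 (adjusted p = 0.372) had an unadjusted p under 0.05 there, as did 12.8% of all genes. Whether the shared numbers pair the libraries is not known. The correlation of deviations from group means across genes was 0.448, 0.163 and 0.0612 for numbers 1 to 3. MERKO 2 and MERKO 3 did not correlate best with their own number, but 3 libraries per group are too few to decide. By chi-square divided by its degrees of freedom, MERKO 1 and MERKO 2 were closest to the control of their number, at 59.58 and 25.72. MERKO 3 was not, at 609.8 with control 3 and 44.63 with control 2. The number of single members whose estimate changed sign, with none called, ran from 0 of 46 without mitochondrial DNA and rRNA genes to 21 of 46 without MERKO 1. Isoform ratios between groups do not depend on length, and their levels do: in control Cox7a1 to Cox7a2 was 1.64 and Cox8b to Cox8a 12.6 in counts not scaled by length, and Atp5g1 to Atp5g3 was 1.30. Depth limits Cox4i2, with 3 to 56 counts per library, and Cox6b2, Cox7b2 and Cox8c, which were not testable.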

Other observations

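Of 12 genes of electron entry and of exchange across the mitochondrial membranes, 6 were higher and 6 lower in MERKO, and 0 passed in the edgeR test or had an unadjusted p under 0.05. Their mean score was 0.31, -0.19 and -0.04 across the MERKO libraries against 0.30, -0.18 and -0.21 across the controls. Gpd2, the glycerol phosphate dehydrogenase that feeds electrons to ubiquinone, was lowest in library 1 of each group, the reverse of that score, with 123.4, 198.4 and 181 CPM across the MERKO libraries against 176.9, 230.3 and 198.6 CPM across the controls (means 168 ± 39.3 and 202 ± 26.9 CPM, SD, n = 3 each, log2 fold change -0.27, SE 0.18, edgeR adjusted p = 0.754).

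The 5 genes outside the members whose log2 CPM followed the member mean most closely, by Pearson's r over the 6 libraries among 6342 genes with at least 10 CPM, were Sucla2, Mrpl18, Ndufs8, Ndufb9 and Mtx2. As a description, r lay between 0.993 and 0.998. MERKO 1 and control 1 stand apart from the other libraries in these values, and over the other 4 libraries r lay between 0.903 and 0.975. Sucla2, a subunit of succinyl-CoA synthetase, measured 393, 304 and 319 CPM across the MERKO libraries against 387, 305 and 321 CPM across the controls, and Ndufs8, a subunit of complex I, measured 105, 62.5 and 72.0 CPM across the MERKO libraries against 101, 65.7 and 67.3 CPM across the controls. Of the members themselves, Cox8a followed the mean least, with r of 0.638 over the 6 libraries.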
